A study of Mus musculus with 9 samples.

Results

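Messenger RNA of the corticotropin-releasing factor (CRF) system and of the corticosteroid receptors was described in 3 brain regions of mice on 3 diets. The set held 7 genes, Crh, Ucn3, Crhbp, Crhr1, Crhr2, Nr3c1 and Nr3c2, chosen by name, with a probe counted where its RefSeq accession belongs to one of them. This rule found 8 probes for 5 of the 7 genes, among 16358 genes named on the array. They were Ucn3 (NM_031250), Crhbp (NM_198408) and Crhr2 (NM_009953) with 1 probe each, Crhr1 (NM_007762) with 2, and Nr3c1 (NM_008173) with 3. No probe carried an accession of Crh or Nr3c2 in the gene table used, and both genes were not analysed here.

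RNA came from amygdala, hypothalamus and prefrontal cortex of wild-type male C57BL/6J mice aged 8 to 9 weeks and killed on day 8 of the diets. Per the labels they were killed at clock hour 14, and the first day of fasting was day 0. AD mice ate freely and were the controls, RFR mice went through alternating days of fasting and refeeding, and CR mice received a fixed part of what the RFR mice had eaten. Each array held RNA pooled in equal amounts from 4 mice, so a region on a given diet was read by 1 array, 9 in all, with no replicate. The labels tie the regions to mice only through the diet group, and the 3 regions of a diet were treated as coming from 1 pool. Per the labels, the hypothalamus and amygdala sections lay 1.5 to 2.5 mm behind bregma and the prefrontal cortex section 2.5 to 3.5 mm behind it, a level at which the mouse brain has no prefrontal cortex, so that group is called prefrontal cortex here as its label only. Levels are log2 of the processed signal over the array's own 75th percentile, so a level of 0 is the signal at that percentile.

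The CRF peptides act on 2 receptors coupled to cyclic AMP. Crh, made by neurons of the paraventricular hypothalamus, drives release of corticotropin from the pituitary and so of corticosteroids from the adrenal gland, and in the amygdala it takes part in fear and anxiety behaviour. Urocortin 3, the product of Ucn3, prefers the receptor encoded by Crhr2, whereas CRF itself prefers that of Crhr1, and Crhbp encodes a secreted protein that binds CRF. Corticosteroids act back on the brain through the glucocorticoid receptor (Nr3c1) and the mineralocorticoid receptor (Nr3c2).

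The promoters of the 4 CRF-system genes with probes are printed because their transcripts differed between regions, in different orders. Each is the 250 bases before a RefSeq start on the gene's own strand (RefSeq, GRCm38.p6). For Crhr1 that start lies inside the span of the gene, which begins at chr11:104130463. Capitals mark matches to a TATA box (TATAAA), a GC box (GGGCGG), a cyclic AMP response half-site (TGACG) or a glucocorticoid response half-site (AGAACA), searched on both strands. The promoter of Ucn3 spans chr13:3945350-3945599 on the minus strand, that of Crhbp chr13:95444832-95445081 on the minus strand, that of Crhr1 chr11:104132531-104132780 on the plus strand, and that of Crhr2 chr6:55133017-55133266 on the minus strand.
Ucn3: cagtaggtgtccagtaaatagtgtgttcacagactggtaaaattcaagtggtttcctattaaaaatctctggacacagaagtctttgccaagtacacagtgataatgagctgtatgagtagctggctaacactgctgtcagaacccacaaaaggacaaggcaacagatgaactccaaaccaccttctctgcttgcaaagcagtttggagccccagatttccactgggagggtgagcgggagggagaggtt
Crhbp: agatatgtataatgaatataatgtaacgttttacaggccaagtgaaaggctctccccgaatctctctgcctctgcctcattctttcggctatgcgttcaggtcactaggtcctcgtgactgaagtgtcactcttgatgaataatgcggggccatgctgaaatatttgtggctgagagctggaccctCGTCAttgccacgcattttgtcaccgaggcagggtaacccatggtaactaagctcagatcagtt
Crhr1: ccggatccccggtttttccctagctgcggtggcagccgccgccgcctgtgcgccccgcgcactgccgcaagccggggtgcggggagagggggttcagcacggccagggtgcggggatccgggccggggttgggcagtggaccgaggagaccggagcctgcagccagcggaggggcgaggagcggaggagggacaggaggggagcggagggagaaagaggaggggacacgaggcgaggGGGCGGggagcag
Crhr2: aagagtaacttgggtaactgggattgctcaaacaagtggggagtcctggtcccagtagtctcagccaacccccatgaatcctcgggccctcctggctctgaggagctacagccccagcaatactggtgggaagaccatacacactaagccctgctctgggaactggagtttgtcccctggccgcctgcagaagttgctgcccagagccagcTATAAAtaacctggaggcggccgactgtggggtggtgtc

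The promoters differed in base composition and in the letters they held. GC made up 74.8% of the Crhr1 window, 57.6% of the Crhr2 window, 47.2% of the Crhbp window and 46.4% of the Ucn3 window, against a median of 52.4% over 32851 mouse promoters. The Crhr2 window held a TATA box 39 bases before the start, a match found in 12.4% of all promoters. The Crhr1 window held a GC box 13 bases before the start (32.7% of all promoters) and the Crhbp window a cyclic AMP half-site, on the opposite strand as CGTCA, 64 bases before it (17.8%). None of the 4 windows held the glucocorticoid half-site, which 16.1% of all promoters hold. A match describes letters and was not tested as a site.

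Facts of the whole set of arrays bear on these values. Detection, which the scanner software reports as well above background, ranged from 59.8% to 69.6% of noncontrol spots per array. The SD between spots of probes printed 10 times had a median of 0.051 to 0.076 log2 units per array, which gives 0.107 for the spot error of a difference between arrays. Slide 1 held all 3 AD arrays and RFR prefrontal cortex, slide 2 held CR hypothalamus, CR prefrontal cortex and the other RFR arrays, and slide 3 held CR amygdala alone. Within a region, the diet pairs read on 1 slide were RFR and AD in prefrontal cortex and CR and RFR in hypothalamus and no others. For every other pair of diets within a region, slide and diet cannot be told apart. The summed signal of 12 hypothalamic neuron markers was 358 to 448 times the 75th percentile in hypothalamus, 13.0 to 18.8 times in amygdala and 1.54 to 1.8 times in prefrontal cortex. The 8 cortical neuron markers summed to 97.0 to 108 in prefrontal cortex, 37.7 to 44.1 in amygdala and 13.9 to 16.9 in hypothalamus. In the same order, 7 hippocampal markers summed to 27.7 to 33.9, 25.2 to 31.1 and 10.5 to 14.2. Most of that sum came from Neurod2 and Wfs1 (4.24 and 3.66 on AD in prefrontal cortex), and other members took another order. Spink8 read -0.21 in amygdala and -1.92 in prefrontal cortex on AD, and Prox1 was not well above background on any prefrontal cortex array. By limma (described below), 3 of the 7 were higher in amygdala than in prefrontal cortex and 1 lower, where 22.3% of all genes passed. The 8 amygdala markers summed to 25.4 to 30.5 in amygdala, 12.8 to 13.7 in hypothalamus and 9.92 to 10.1 in prefrontal cortex. Of these 8, limma had 5 higher and 1 lower in amygdala than in prefrontal cortex, and 5 higher and 2 lower than in hypothalamus (29.4% of all genes). Of 8 striatal markers, 6 were higher in amygdala than in prefrontal cortex and 5 higher than in hypothalamus, with 0 lower. Dlk1 (amygdala list) and Drd2 (striatal list) were not well above background on any prefrontal cortex array.

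The first comparison asked in which region each gene was highest, with the 3 diet pools as the replicates of a region. The genes took different orders. Ucn3 was highest in amygdala, Crhr2 in hypothalamus, and Crhr1 and Nr3c1 in prefrontal cortex, while Crhbp was low in hypothalamus and at like levels in the other regions. With limma (region plus diet, fitted on all genes, Benjamini-Hochberg adjusted p under 0.05), 4 of the 5 genes differed between hypothalamus and amygdala, where 29.4% of the 12622 genes tested did. All 5 differed between hypothalamus and prefrontal cortex (48.0% of all genes) and 4 between amygdala and prefrontal cortex (22.3%). A call in these contrasts was therefore common among all genes, and the counts are no sign of a set that stands apart. Both counts against prefrontal cortex include Ucn3, which was not well above background on any array there. Tissue RNA cannot tell fewer cells of a type from less RNA per cell, here and throughout.

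**Figure D1:**
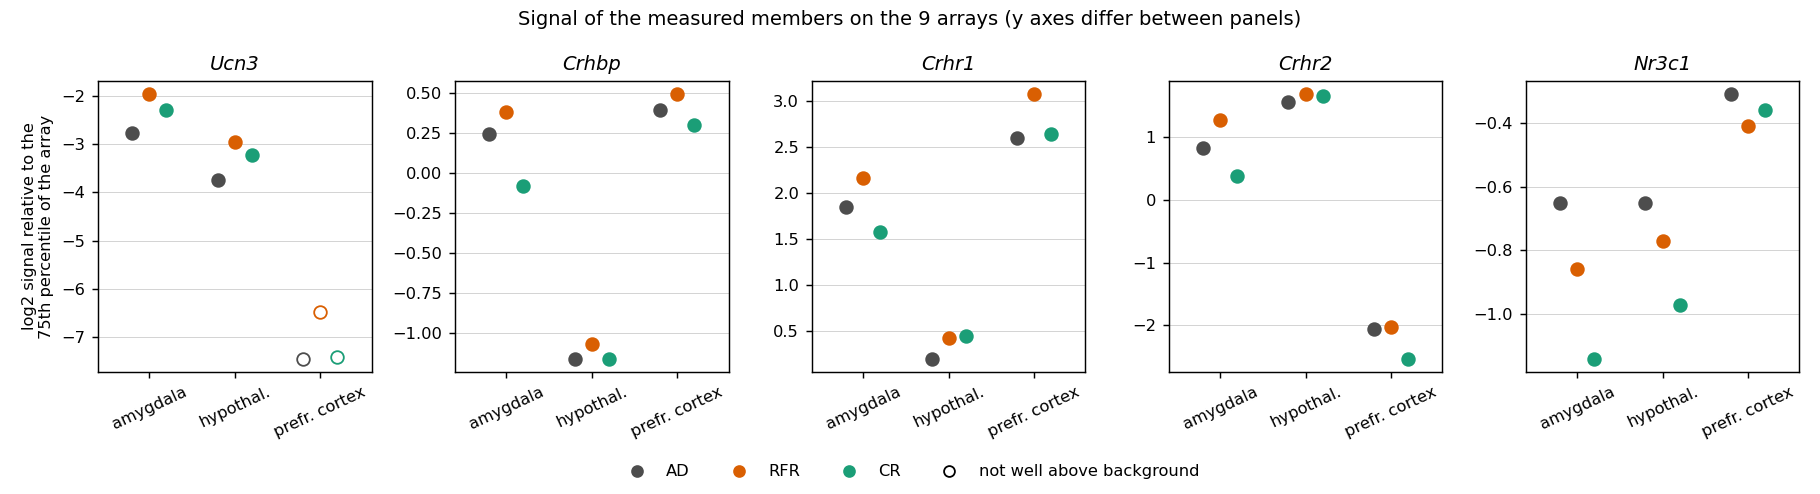
Levels of the 5 genes, 1 panel per gene with its own vertical axis, as log2 signal over the array's 75th percentile by region (horizontal axis), with 1 point per array coloured by diet and no error bar since each point is a single array. Open points are not well above background, which holds for Ucn3 on all 3 prefrontal cortex arrays, and the regions separate in a different order from gene to gene.

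Ucn3, the ligand, was a gene of amygdala and hypothalamus. Its levels in amygdala were -2.78 on AD, -1.97 on RFR and -2.30 on CR. In hypothalamus they were -3.74, -2.95 and -3.22 in the same order, and in prefrontal cortex -7.44, -6.47 and -7.41, not well above background on any array there. In each diet the hypothalamus array lay below the amygdala array, with log2 differences of -0.96 on AD, -0.98 on RFR and -0.92 on CR, although the 2 regions' ranges nearly touched (the highest hypothalamus level, on RFR, lay just under the lowest amygdala level, on AD). The mean was -2.35 ± 0.41 (SD, n = 3) in amygdala and -3.30 ± 0.41 in hypothalamus, a 1.94-fold difference with an adjusted p of 0.0037 in limma. That call rests on comparing regions within a diet pool: without the pool as a block, the adjusted p was 0.052. Against prefrontal cortex the level was at least 8.08-fold higher in amygdala and at least 4.17-fold higher in hypothalamus. Limma tested the measured values, 27.1-fold for amygdala (adjusted p = 1.3e-05) and 14.0-fold for hypothalamus (adjusted p = 4.2e-06). These tests use prefrontal cortex values not well above background. Ucn3 met the filter of 3 detected arrays only through amygdala and hypothalamus, so its direction against prefrontal cortex was largely set by the filter. The bounds themselves were not tested. These bounds set the dim arrays at the lowest signal found well above background there, a mean of -5.36, where the measured mean was -7.11 ± 0.55.

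Crhbp, which encodes the binding protein, was low in hypothalamus. Its levels there were -1.16 on AD, -1.07 on RFR and -1.16 on CR, the tightest spread of the 5 genes in any region together with that of Nr3c1 in prefrontal cortex (SD 0.05 for both). In amygdala they were 0.24, 0.38 and -0.08, and in prefrontal cortex 0.39, 0.49 and 0.30. All 3 hypothalamus arrays lay below all others, while amygdala and prefrontal cortex overlapped. Hypothalamus was 2.48-fold lower than amygdala (adjusted p = 0.00027 in limma) and 2.87-fold lower than prefrontal cortex (adjusted p = 4.6e-05 in limma). Between amygdala and prefrontal cortex the log2 difference of -0.21 ± 0.11 (SE) did not pass (adjusted p = 0.22 in limma), although the amygdala array was the lower of the pair in all 3 diets.

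Crhr1, the receptor that CRF prefers, fell in steps from prefrontal cortex to amygdala to hypothalamus. Its levels in prefrontal cortex were 2.59 on AD, 3.07 on RFR and 2.64 on CR. In amygdala they were 1.85, 2.16 and 1.58, and in hypothalamus 0.20, 0.42 and 0.45. No array of one region overlapped those of another. Hypothalamus was 5.31-fold lower than prefrontal cortex (log2 difference -2.41 ± 0.14 SE, adjusted p = 1.9e-05 in limma) and 2.84-fold lower than amygdala (adjusted p = 0.00044 in limma). Amygdala was 1.87-fold lower than prefrontal cortex (adjusted p = 0.0045 in limma). This last call ended with the slide as a fixed term (log2 difference -0.64, adjusted p = 0.053) and without the RFR pool (-0.90, adjusted p = 0.06).

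A second, dimmer probe of Crhr1 gave the same order of regions. It read -1.63, -1.53 and -1.68 in prefrontal cortex on AD, RFR and CR, -3.50, -2.50 and -2.07 in amygdala and -3.96, -3.65 and -3.99 in hypothalamus, well above background on all 9 arrays. Its limma differences were -2.26 for hypothalamus against prefrontal cortex (adjusted p = 0.00063), -1.18 for hypothalamus against amygdala (adjusted p = 0.02) and -1.08 for amygdala against prefrontal cortex (adjusted p = 0.034). The probes thus agreed on regions, and they disagreed on diets within amygdala, as given with the diets.

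Crhr2, the receptor that urocortin 3 prefers, ran opposite to Crhr1. Its levels in hypothalamus were 1.56 on AD, 1.68 on RFR and 1.65 on CR. In amygdala they were 0.82, 1.27 and 0.38, and in prefrontal cortex -2.05, -2.02 and -2.53, all well above background. The 3 regions did not overlap, and amygdala was the region with the widest range between diets. Hypothalamus was 14.3-fold higher than prefrontal cortex (log2 difference 3.83 ± 0.17 SE, adjusted p = 6.8e-06 in limma) and amygdala 8.14-fold higher (3.03 ± 0.17 SE, adjusted p = 7.1e-05 in limma). The difference between hypothalamus and amygdala was smaller, 1.75-fold (adjusted p = 0.012 in limma), and ranged over the pools from 0.42 on RFR to 1.27 on CR. It did not pass with the slide as a fixed term (log2 difference 0.67, adjusted p = 0.081) or without the CR pool (0.58, adjusted p = 0.059).

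Choroid plexus is a vessel-rich tissue of the ventricles in which Crhr2 transcripts have been described. Levels of its markers are set beside those of Crhr2. The 10 measured choroid plexus markers summed to 7.19 to 8.19 times the 75th percentile in hypothalamus, 3.13 to 4.67 in amygdala and 0.36 to 0.407 in prefrontal cortex, where Ttr, Kcne2, Calml4, Otx2, Cldn2 and Sostdc1 were not well above background on any array. Most of the sum in hypothalamus and amygdala came from Clic6 alone, with levels of 2.48 to 2.67 and 1.06 to 1.49. Of the 8 fitted markers, 7 passed as higher in hypothalamus than in prefrontal cortex, where 48.0% of all genes passed. In amygdala 6 passed as higher than in prefrontal cortex, against 22.3% of all genes. Their medians were 3.22 and 2.95 where all genes had 0.056 and 0.004. Ttr, Kcne2, Calml4 and Sostdc1 met the filter of 3 detected arrays only through hypothalamus and amygdala, so their direction was largely set by the filter. Between hypothalamus and amygdala, where Crhr2 was higher in hypothalamus, 3 markers were higher and 1 lower, against 29.4% of all genes. Their median was 0.07 where all genes had 0.057. Within regions Crhr2 and the markers did not always go together. In hypothalamus Ttr, the thyroid hormone carrier made by choroid plexus, was -4.15 on AD, -3.39 on RFR and -2.69 on CR, while Crhr2 varied by little there. In amygdala both were highest on RFR and lowest on CR, with Ttr at -3.47, -1.66 and -3.95 on AD, RFR and CR. The summed markers there were 3.13, 4.67 and 3.36 in that order, so the sum was not lowest on CR. Of 7 markers measured on both arrays, 6 were lower and 1 higher on CR than on AD. Folr1 read -2.77 on AD and -2.98 on CR in prefrontal cortex, above its amygdala levels of -3.36 and -3.62. On RFR it lay the other way (-2.71 against -1.89). The part of choroid plexus in the Crhr2 values was not tested.

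**Figure D2:**
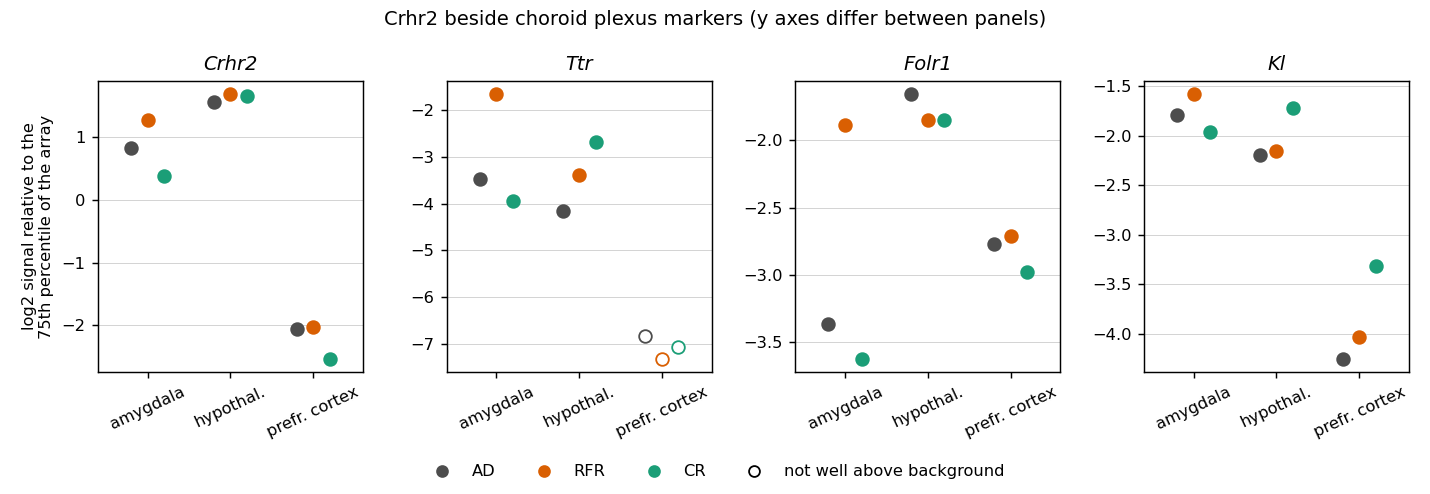
Levels of Crhr2 and of the choroid plexus markers Ttr, Folr1 and Kl, 1 panel per gene with its own vertical axis (log2 signal over the array's 75th percentile), by region (horizontal axis), with 1 point per array coloured by diet and open points where a gene is not well above background. In amygdala all 4 genes are highest on RFR, whereas in hypothalamus Ttr ranges from -4.15 to -2.69 while Crhr2 lies between 1.56 and 1.68.

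Nr3c1, the glucocorticoid receptor, varied least between regions. Its levels were -0.31 on AD, -0.41 on RFR and -0.36 on CR in prefrontal cortex. In amygdala they were -0.65, -0.86 and -1.14, and in hypothalamus -0.65, -0.77 and -0.97. Amygdala and hypothalamus overlapped, and both lay below prefrontal cortex. The receptor was 1.44-fold lower in amygdala than in prefrontal cortex (log2 difference -0.52 ± 0.11 SE, adjusted p = 0.017 in limma) and 1.36-fold lower in hypothalamus (-0.44 ± 0.11 SE, adjusted p = 0.016 in limma). Amygdala and hypothalamus differed by 0.08 ± 0.11 SE (adjusted p = 0.62 in limma).

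These calls of Nr3c1 were the least firm of the set. The call for amygdala against prefrontal cortex ended with the slide as a fixed term (-0.46, adjusted p = 0.12), without the CR pool (-0.40, adjusted p = 0.12) and without the RFR pool (-0.56, adjusted p = 0.14). That for hypothalamus against prefrontal cortex ended without the CR pool (-0.35, adjusted p = 0.083) and without the RFR pool (-0.48, adjusted p = 0.1). The other 2 probes of Nr3c1, between -3.77 and -2.70 on all arrays, gave the same direction. They read -0.64 (adjusted p = 0.024 in limma) and -0.53 (adjusted p = 0.019) for amygdala against prefrontal cortex, and -0.48 (adjusted p = 0.036) and -0.35 (adjusted p = 0.047) for hypothalamus against prefrontal cortex.

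**Figure D3:**
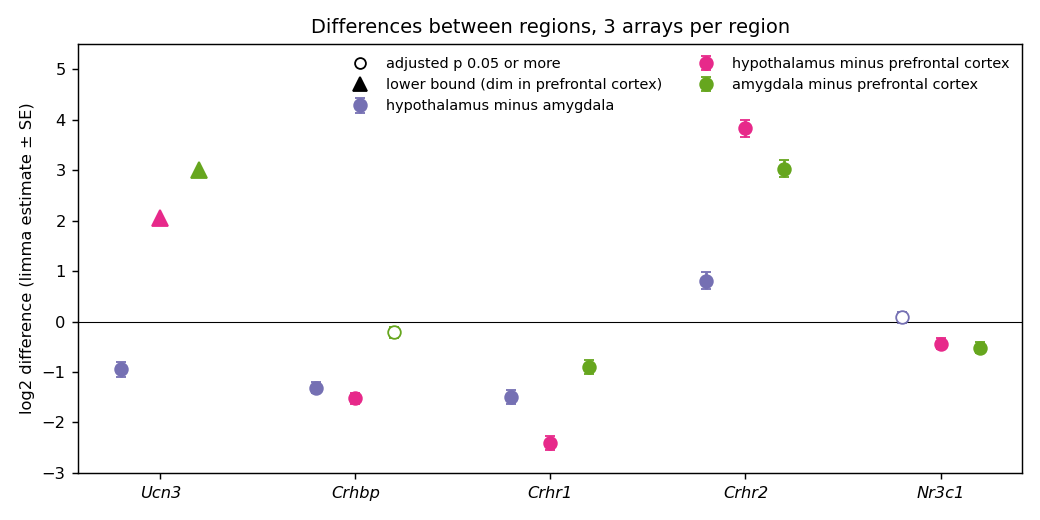
Log2 differences between regions for the 5 genes, as limma estimates with bars of 1 SE (3 arrays per region), with filled points where the adjusted p was under 0.05 and triangles for the lower bounds of Ucn3 against prefrontal cortex (2.06 and 3.01). Crhr1 lies below 0 and Crhr2 above 0 in all 3 contrasts.

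Across the 9 arrays, Crhr1 and Crhbp had a Pearson correlation of 0.964 and Ucn3 and Crhr2 one of 0.91, whereas Crhr1 and Crhr2 had -0.844. These are descriptions over 9 arrays that fall into 3 regions, share arrays and slides, and mostly restate the region orders. The 3 genes most like Crhr2 among 12534 compared were Lck (0.997), Rhcg (0.996) and Mtss1 (0.995), and 717 genes had a correlation above 0.9 with it. Most like Crhr1 were Slc23a3 (0.99), Psrc1 (0.989) and Dgkz (0.989), with 803 genes above 0.9, and most like Crhbp were Jsrp1 (0.996), Spata2l (0.993) and Cpne8 (0.99), with 626. Among the genes most like Ucn3 were Sfmbt2 (0.988) and Pde9a (0.988), with 209 genes above 0.9. Nr3c1 had the fewest such genes, 77, led by Ciao3 (0.97), Pnkd (0.966) and Lmna (0.965).

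The second comparison asked whether the diets, which the series title ties to anxiety- and depression-like behaviour, went with a change in these genes. None of the 5 genes passed the test between diets over the 3 regions. Limma called 0.0% of the 12622 genes for CR against AD, which is 0 genes where 2083 had an unadjusted p under 0.05. It called 2 genes (0.0158%) both for RFR against AD and in the contrast of CR with RFR, where 776 and 1866 genes had an unadjusted p under 0.05. Both were the pituitary hormone genes Prl and Gh, which were well above background on the RFR arrays and on no others. They met the filter of 3 detected arrays only through RFR, so the direction of these calls was largely set by the filter. Prl read -1.43 in amygdala, -2.04 in hypothalamus and -1.84 in prefrontal cortex on RFR, and Gh read -3.18, -3.65 and -3.75. The part of pituitary RNA in the RFR differences described here was not tested. The 3 arrays of a diet share 1 pool of mice, so every p-value for a diet is too small, those below included. At an unadjusted p under 0.05 in limma were Nr3c1 for CR against AD, Ucn3 and Crhr1 for RFR against AD, and, comparing CR with RFR, Ucn3 and Crhr2.

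In the fit over regions, Ucn3 had the largest difference between diets of the 5 genes. RFR exceeded AD by 0.81 in amygdala and 0.80 in hypothalamus, and the dim prefrontal cortex arrays lay the same way. Over the regions the difference was 0.86 ± 0.15 (SE) with an adjusted p of 0.47 in limma, understated by the shared pool. That value includes 0.97 from the prefrontal cortex arrays, where Ucn3 was not well above background, and was 0.80 without them. With normexp background correction it was 0.31 over the regions, 0.47 in amygdala and 0.28 in hypothalamus. CR lay between the other diets in both regions where Ucn3 was measured, 0.48 above AD in amygdala and 0.53 in hypothalamus. With normexp, CR exceeded AD by 0.06 over the regions. In hypothalamus, 90% of all genes differed by less than 0.39 between RFR and AD, and in amygdala by less than 0.56. Between CR and AD these limits were 0.57 in hypothalamus and 0.70 in amygdala, and Ucn3 lay within both. The order of the 3 diets was therefore the same in both regions, in single arrays without replicates.

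Crhr1 and Crhr2 were also higher on RFR than on AD in all 3 regions, by smaller amounts. For Crhr1 the differences were 0.32 in amygdala, 0.21 in hypothalamus and 0.47 in prefrontal cortex, and limma gave 0.33 over the regions (adjusted p = 0.80, understated by the shared pool). For Crhr2 they were 0.45, 0.12 and 0.03, with 0.20 over the regions (adjusted p = 0.93 in limma, again understated). The 2 smaller Crhr2 values lie near the spot error of a difference, 0.107. The dimmer Crhr1 probe read 1.00 higher in amygdala on RFR than on AD, and 0.31 and 0.10 higher in hypothalamus and prefrontal cortex.

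For Nr3c1, the brightest probe read lower on CR than on AD, with differences of -0.49 in amygdala, -0.32 in hypothalamus and -0.05 in prefrontal cortex, the last within the spot error. Limma gave -0.29 ± 0.11 (SE) over the regions (adjusted p = 0.28, understated by the shared pool). The other 2 probes shared this only in amygdala, where they read -0.36 and -0.33. In hypothalamus they read 0.13 and 0.16, and in prefrontal cortex 0.33 and 0.01. The lower amygdala value thus came from all 3 probes of Nr3c1, and the hypothalamus value from 1 of 3.

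In amygdala, the CR array had the lowest level of Crhbp, Crhr1, Crhr2 and Nr3c1, with their brightest probes. Against AD these genes differed by -0.32, -0.27, -0.44 and -0.49, and against RFR by -0.46, -0.59, -0.89 and -0.27. All genes on this array differed from AD by a median size of 0.28, more than in any other pair of diets within a region (0.15 to 0.24), and 10% of genes differed by more than 0.70. The differences of the 4 genes from AD were therefore of a size that was common on that array. Against RFR, Crhr2 lay beyond the 0.63 that holds 90% of genes, and the other 3 did not. The dimmer Crhr1 probe ran the other way, 1.43 higher on CR than on AD.

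Within single regions, none of the 5 genes, by its brightest probe, was 2-fold or more apart between 2 diets. Of all genes well above background on both arrays, the share at least 2-fold apart was 3.26% for CR against AD, 1.47% for RFR against AD and 2.16% between CR and RFR in amygdala. It was 1.34%, 0.69% and 0.528% in hypothalamus and 1.13%, 0.971% and 0.819% in prefrontal cortex. With 1 array per group none of these within-region differences could be tested. On 1 shared slide, RFR minus AD in prefrontal cortex was 0.47 for Crhr1, 0.11 for Crhbp, 0.03 for Crhr2 and -0.10 for Nr3c1. On the other, CR minus RFR in hypothalamus was -0.27 for Ucn3, -0.20 for Nr3c1, -0.09 for Crhbp, -0.03 for Crhr2 and 0.03 for Crhr1. With the slide as a fixed term over the regions, limma gave 1.1 for Ucn3 in RFR against AD (adjusted p = 0.56) and 0.47 for Crhr1 in CR against AD (adjusted p = 0.55), where it gave 0.86 and 0.01 without it. No diet contrast of the 5 genes passed with the slide as a term, and these p-values too are understated by the shared pool.

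**Figure D4:**
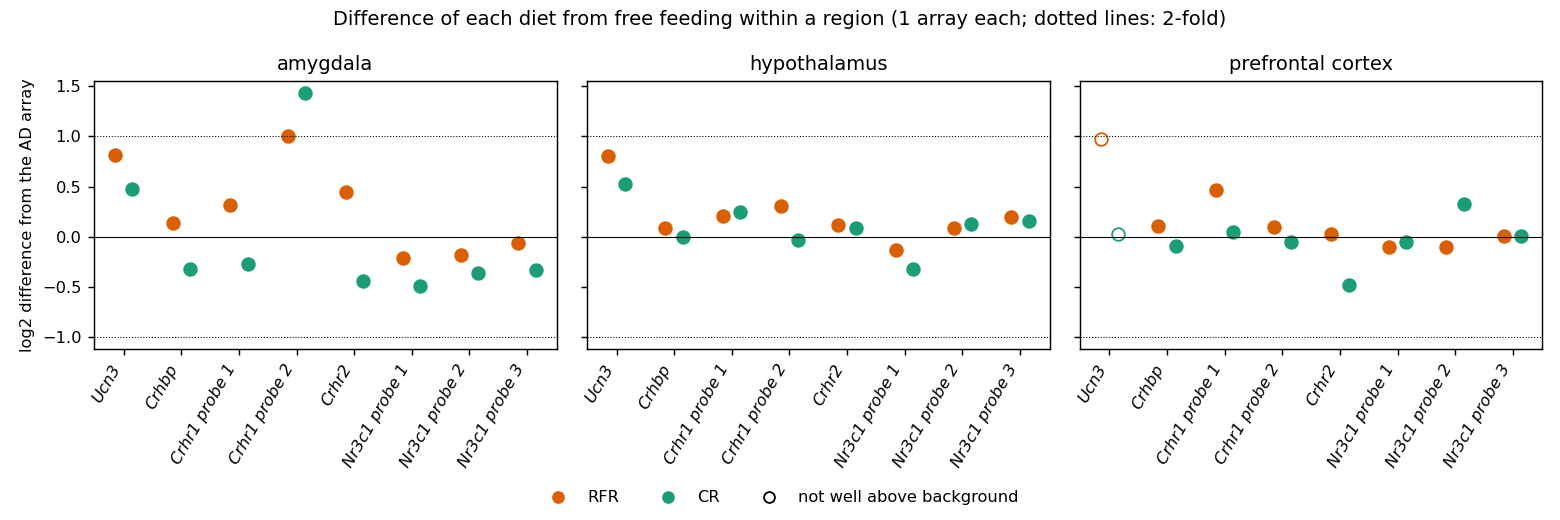
Log2 differences of RFR and of CR from the AD array (vertical axis) for every probe of the 5 genes (horizontal axis), 1 panel per region, with no error bar since each group has 1 array, open points where a probe is not well above background and dotted lines at 2-fold. Ucn3 lies above 0 for RFR (0.81 in amygdala and 0.80 in hypothalamus), and the second Crhr1 probe is the only one drawn that reaches the 2-fold line, in amygdala.

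The genes around the CRF system were taken from lists of pathway members. Of the other ligands, Ucn had a probe. Urocortin, its product, binds both CRF receptors. Its levels were -1.93 on AD, -3.64 on RFR and -3.66 on CR in amygdala and -3.44, -4.01 and -4.22 in prefrontal cortex, and it was not well above background on any hypothalamus array. Amygdala was at least 3.8-fold and prefrontal cortex at least 2.16-fold higher than hypothalamus. Limma tested not these bounds but the measured differences of hypothalamus from them, -3.93 and -3.12 (adjusted p = 0.00026 and 0.00025). Ucn met the filter of 3 detected arrays only through amygdala and prefrontal cortex, so this direction was largely set by the filter. In amygdala Ucn differed from AD by -1.71 log2 units on RFR and -1.73 on CR, and over the regions neither diet passed in limma (-0.71, adjusted p = 0.82, and -0.94, adjusted p = 0.25, both understated by the shared pool). On the same 3 amygdala arrays Ucn was thus highest and Ucn3 lowest on AD.

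Most measured genes of the list of peptides and receptors acting with CRF on the pituitary were higher in hypothalamus. Avpr1b was not well above background on any array and was not fitted, and Mc2r was not well above background on any hypothalamus array. Of the 7 fitted genes, 6 were higher than in amygdala and 6 higher than in prefrontal cortex, with none lower, where 29.4% and 48.0% of all genes passed, and the medians were 2.88 and 4.28 where all genes had 0.057 and 0.056. Avpr1a, among the 7, was not well above background on any prefrontal cortex array or on AD in amygdala. Its direction against prefrontal cortex was therefore largely set by the filter, and hypothalamus was at least 14.3-fold higher, a bound that was not tested. Avp, which encodes vasopressin, the partner of CRF on pituitary corticotrophs, was 3.06 ± 0.14 (SE) log2 units higher than in amygdala (adjusted p = 3e-05 in limma). Pomc, the precursor of corticotropin, was 3.66 ± 0.41 higher (adjusted p = 0.00099). Its amygdala levels were 0.29 on AD, 1.84 on RFR and -0.24 on CR, at least 2-fold apart between RFR and each other diet. On the same 3 arrays Prl read -7.66, -1.43 and -8.19 and Gh -7.81, -3.18 and -7.33, well above background on RFR only. In hypothalamus the pituitary markers Cga (0.77 to 0.91) and Pitx1 (-2.32 to -1.91) were well above background on all 3 diets. The part of pituitary RNA in the Pomc values was not tested.

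Signalling genes below the CRF receptors passed in both directions. Of 21 fitted genes for cyclic AMP and arrestin signalling, 4 were higher and 10 lower in hypothalamus than in prefrontal cortex, with a median of -0.30 where 48.0% of all genes passed and their median was 0.056. Without the RFR pool 6 passed in all, where the full set had 14. Adcy1, a neuronal adenylyl cyclase, fell by 4.13 on the log2 scale (adjusted p = 6.4e-05 in limma, with no value on the RFR prefrontal cortex array). Rgs4, which limits G protein signalling, fell by 2.52 (adjusted p = 6e-06) and Crem, a cyclic AMP-responsive transcription factor, fell by 1.35 (adjusted p = 9.1e-05). Adcy9 fell by more than Crem, with levels of 1.56 to 1.88 in hypothalamus and 3.27 to 3.48 in prefrontal cortex. Adcy8 was higher, by 0.93 (adjusted p = 0.00024). Of the paraventricular factors, Sim1 was at least 4.09-fold higher in hypothalamus and at least 2.8-fold higher in amygdala than in prefrontal cortex. Limma tested not these bounds but the measured values, with a dim prefrontal cortex mean of -7.49 (adjusted p = 7.5e-06 and 6.1e-05). Sim1 met the filter of 3 detected arrays only through hypothalamus and amygdala, so this direction was largely set by the filter. Otp was not well above background on any array.

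Partners of the corticosteroid receptors are given for the same contrast, in which 48.0% of all genes passed. Of 10 nuclear receptor coregulators, 7 were lower in hypothalamus than in prefrontal cortex and none higher, with a median of -0.65. Ncor1, a corepressor, fell by 1.08 ± 0.13 (SE; adjusted p = 0.00058 in limma), Nrip1 by 0.96 (adjusted p = 0.00038) and Ppargc1a by 0.84 (adjusted p = 0.0012). Of 15 chaperones of the receptor complex, 4 were higher and 1 lower in the same contrast, 5 in all, and 2 passed without the RFR pool, without the CR pool or with the slide as a fixed term. Fkbp4, an immunophilin of that complex, was 0.75 higher (adjusted p = 0.024), while Fkbp5, which damps receptor activity, differed by -0.08 (adjusted p = 0.83). Hsd11b1, which regenerates active corticosteroid, differed from prefrontal cortex by -1.14 in amygdala (adjusted p = 0.00098) and -0.67 in hypothalamus (adjusted p = 0.0038). The estrogen receptor Esr1 was 2.57 higher in hypothalamus than in prefrontal cortex (adjusted p = 2.2e-05), the opposite direction to Nr3c1.

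Of 15 genes that glucocorticoids induce, 4 were higher and 5 lower in hypothalamus than in prefrontal cortex, a share near the 48.0% of all genes. Klf9 and Cdkn1a both fell by 1.70 (adjusted p = 0.00046 and 0.00031 in limma), Dusp1 fell by 1.66 (adjusted p = 0.00026), and Plin4 was 1.29 higher (adjusted p = 0.00021). Between diets none of the 15 passed in any of the 3 contrasts, nor did any gene of the other 8 pathway lists. For RFR against AD, 12 of 15 were lower in amygdala, 13 of 15 in hypothalamus and 11 of 15 in prefrontal cortex, with medians of -0.26, -0.28 and -0.15 where all genes had -0.033, -0.058 and 0.011. For CR against AD, 10, 7 and 7 of the 15 were lower, with medians of -0.19, 0.09 and 0.04 where all genes had -0.113, -0.032 and -0.026. Tsc22d3, a glucocorticoid-induced leucine zipper, differed from AD by -0.18, -0.37 and -0.29 on RFR and by -0.48, -0.38 and -0.32 on CR in amygdala, hypothalamus and prefrontal cortex. Its limma values over the regions were -0.28 (adjusted p = 0.74) and -0.39 (adjusted p = 0.21), understated by the shared pool. Other genes of the list lay the other way, such as Mt1, a metallothionein gene, 0.93 higher on CR than on AD in hypothalamus and 0.59 higher in prefrontal cortex. Fkbp5 in amygdala was 0.78 higher on RFR and 0.99 higher on CR than on AD.

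**Figure D5:**
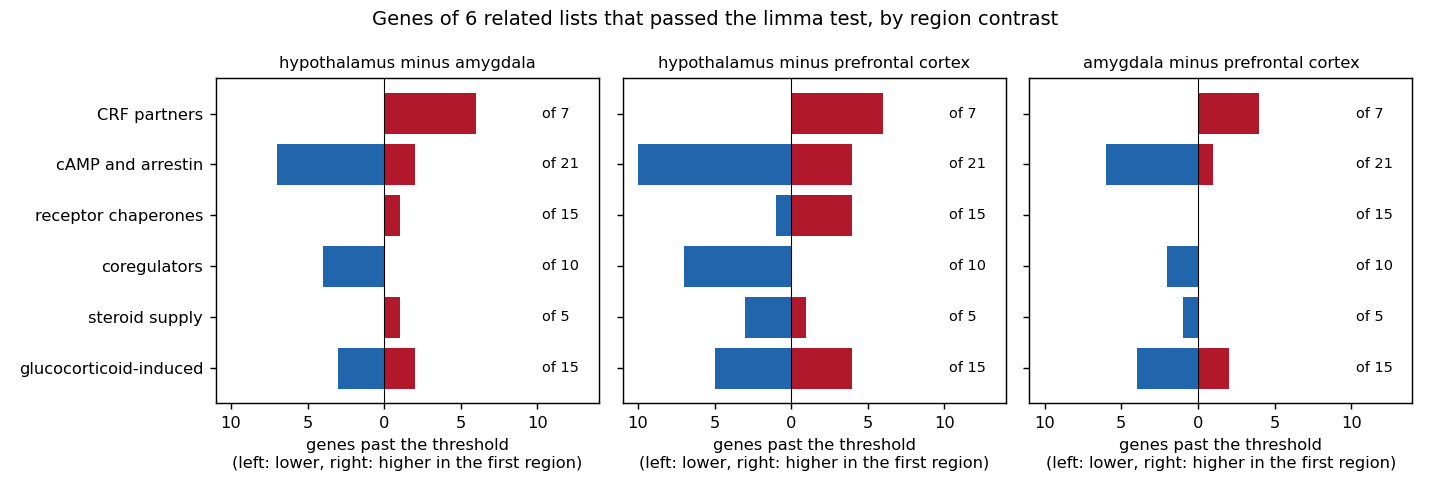
Number of genes in 6 of the pathway lists that were lower (bars left of 0) or higher (bars right of 0) in the first-named region at an adjusted p under 0.05 in limma, 1 panel per region contrast, with the number of genes fitted at the right. In hypothalamus against prefrontal cortex the coregulators lie only on the lower side (7 of 10) and the peptides and receptors acting with CRF only on the higher side (6 of 7).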

How the data were processed

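Members and gene lists were chosen with earlier results of these data known. Per the file headers, the 9 deposited scanner files were made with Agilent Feature Extraction 9.5.1.1. The processed signal in these deposited files is an intensity with background subtracted, and other deposited columns are flags of 0 or 1 for detection and outliers. A second table the authors deposited gives, for each region, the ratio to its AD array and served as an alternative for diets.

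Signals were scaled to each array's 75th percentile, outlier spots were dropped, and a probe's spots were averaged. Of 41174 probes, 22951 matched a symbol by accession (GRCm38.p6 gene table). A gene's brightest probe on average was used. Genes well above background on at least 3 arrays, with values on at least 6, were fitted with limma 3.58.1 (R 4.3.3; region plus diet, 4 residual degrees of freedom), tested first on simulated data. All 9 arrays entered each fit. Python 3.11.15 did the rest. Replicate spread is that of single arrays, and their number limits the precision. Genes named are all members, their 3 most correlated genes (1 is not reported here), and up to 4 of a list by size or those 2-fold apart between diets. Fkbp5, Tsc22d3, Otp, Adcy8, Avpr1b, Mc2r and the choroid plexus, pituitary, hippocampal, amygdala and striatal markers were named after their values were seen. Alternatives changed background correction (normexp, run on median signals because the files hold no mean spot signal), scaling, filter, probe, variance model and slide, or left out arrays.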

Additional observations from a re-analysis of the deposited data

Results flagged for a closer look

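Crhr1 moved in opposite directions in amygdala and hypothalamus for CR against AD: its brightest probe gave -0.27 in amygdala and 0.25 in hypothalamus, a gap of -0.52 log2 units. Both differences exceed the limit of 0.214 set from the error between repeated spots, on 1 array per group, and the difference between the regions was not tested. That error does not measure the spread between arrays. All genes differed between CR and AD by a median size of 0.28 in amygdala and 0.21 in hypothalamus, so differences of this size were common. The second probe of Crhr1 read 1.43 in amygdala and -0.03 in hypothalamus, so the probes do not share this direction. Both pairs of arrays lay on different slides, and the effect of the diet cannot be told apart from that of the slide.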

How the results depend on the processing

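Of the 13 region calls of the 5 genes, 8 passed in every alternative in which they were fitted and 5 ended in some, as named with each gene; no call reversed. With the slide as a fixed term, 2 of 5 genes passed for amygdala against prefrontal cortex. Leaving out 1 diet pool gave 2 to 4 there, 4 to 5 for hypothalamus against prefrontal cortex and 3 to 4 for hypothalamus against amygdala. Every alternative gave 0 for each pair of diets. Without the replicate block (the diet pool), 3, 5 and 4 of 5 genes passed for hypothalamus against amygdala, hypothalamus against prefrontal cortex and amygdala against prefrontal cortex; the Ucn3 call for hypothalamus against amygdala (adjusted p = 0.052 in limma) was lost. Uncalled diet values changed sign: Crhr1 for CR against AD was -0.11 without the hypothalamus arrays, -0.013 without the prefrontal cortex arrays and 0.15 without the amygdala arrays. With another probe Nr3c1 was 0.034 for CR against AD, 0.049 for RFR against AD and 0.10 for CR with RFR. The cause was not tested. Alternatives without the CR amygdala array and with other probes were added after seeing the data. Normexp, which compresses dim signals by its construction, gave fitted Ucn3 differences of 1.11 (hypothalamus) and 1.72 (amygdala) log2 units against prefrontal cortex, -0.60 between hypothalamus and amygdala and 0.31 for RFR against AD. Over the alternatives, list counts in hypothalamus against prefrontal cortex ranged from 6 to 15 for cyclic AMP and arrestin signalling (14 in the report), 2 to 6 for chaperones (5), 5 to 7 for coregulators (7), 0 to 5 for steroid supply (4) and 6 to 10 for glucocorticoid-induced genes (9). Ucn3 could not be fitted where detection on all 9 arrays was required. Signal over background limits Ucn3 in prefrontal cortex and Ucn in hypothalamus to bounds.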

Other observations

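In amygdala, 7 of 7 measured choroid plexus markers were higher on RFR than on AD, with a median of 1.48 where all genes had -0.033. Calml4 (2.24), Kcne2 (1.94), Ttr (1.81) and Folr1 (1.48) were at least 2-fold apart, as were 1.47% of all genes. On CR against RFR, 8 of 8 were lower, with a median of -1.16 where all genes had -0.056. These are single arrays on different slides, with no test.

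Pou3f2, a transcription factor of paraventricular neurons, was 1.82 higher on RFR and 0.80 higher on CR than on AD in amygdala, and differed by -0.51 and -0.71 in prefrontal cortex. Esr1 was lower on CR than on AD in all 3 regions, with differences of -0.82 in amygdala, -0.55 in hypothalamus and -1.18 in prefrontal cortex and an adjusted p of 0.18 in limma (understated by the shared pool).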
